A study of Mus musculus with 9 samples.

Results

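Nascent transcription was described at Pou5f1, Sox2, Nanog, Esrrb and Sall4, the core pluripotency factors of mouse embryonic stem cells, and at the regions around them. The members were all bidirectional regions with a centre within 120 kb of either end of one of these 5 genes in the RefSeq annotation, 236 of 174289 regions in all. A bidirectional region is a place where RNA polymerase leaves in both directions, and the count of each was taken over 600 bp (mm10 coordinates). Of the members, 3 were gene-end regions, centred within 1 kb of an end of the listed gene, and 233 were distal.

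The libraries were made by PRO-seq, which labels the RNA that polymerases are making in isolated nuclei. All cells were embryonic stem cells of the genotype Firre KO with an inducible Firre transgene, so the controls too lacked the endogenous Firre, an X-linked long non-coding RNA gene, and carried the transgene. There were 3 libraries from untreated cells (0 min), 3 after 15 min and 3 after 30 min of doxycycline at 1 ng/μL, and libraries are given below in the order of replicate 1, 2 and 3. No group had doxycycline without the transgene, so an effect of the drug cannot be told apart from that of Firre. The medium held LIF, the MEK inhibitor PD0325901 and the GSK3 inhibitor CHIR99021, which together hold the cells in the pluripotent state. The labels do not say which promoter drives the transgene, whether the line is 1 clone, or if separate cultures stand behind the libraries of a group. The p-values below therefore rest on library-to-library spread, part of which may be technical.

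As background, Pou5f1 (Oct4) and Sox2 bind DNA side by side and, with the homeodomain factor Nanog, occupy the enhancers of their own genes and of many others in embryonic stem cells. Esrrb, an orphan nuclear receptor, and Sall4, a zinc finger protein, bind many of the same places. Enhancers, like promoters, are transcribed in both directions, and the short nascent RNAs made there are widely used as a measure of enhancer activity. Sox2 depends in these cells on a cluster of enhancers far downstream of the gene, the Sox2 control region, and Nanog has enhancers both close upstream and farther away on both sides.

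The promoters of Sox2 and Nanog and the inner promoter of Esrrb are shown because a listed region covers each of them. Each sequence is the 250 bases before a RefSeq start on GRCm38.p6, plus strand, 5′ to 3′. Capitals mark matches, on either strand, to TTTGCAT (the octamer letters bound by POU factors), CATTGT (SOX factors), AAGGTCA (ESRRB and other nuclear receptors), GGGCGG (the GC box), TATAAA (the TATA box) or CCAAT (NFY).
Sox2, chr3:34649745-34649994: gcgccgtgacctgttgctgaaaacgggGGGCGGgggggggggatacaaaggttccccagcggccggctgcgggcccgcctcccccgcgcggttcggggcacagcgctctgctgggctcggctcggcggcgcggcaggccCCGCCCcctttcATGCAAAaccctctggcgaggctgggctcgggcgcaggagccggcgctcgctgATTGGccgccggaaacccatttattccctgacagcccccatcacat
Nanog, chr6:122707239-122707488: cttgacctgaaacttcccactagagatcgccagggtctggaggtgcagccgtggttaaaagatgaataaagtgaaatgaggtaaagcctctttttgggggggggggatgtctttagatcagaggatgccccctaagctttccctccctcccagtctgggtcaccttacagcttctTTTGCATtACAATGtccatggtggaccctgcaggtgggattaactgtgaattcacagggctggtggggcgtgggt
Esrrb inner start, chr12:86421394-86421643: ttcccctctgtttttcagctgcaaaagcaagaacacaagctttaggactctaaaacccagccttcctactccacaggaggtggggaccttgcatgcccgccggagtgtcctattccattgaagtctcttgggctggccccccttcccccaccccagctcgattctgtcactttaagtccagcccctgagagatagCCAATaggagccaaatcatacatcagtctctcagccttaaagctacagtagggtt

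In the Nanog promoter a TTTGCAT match began 75 bases before the start, and 1 base after it lay ACAATG, the reverse of CATTGT, so that POU and SOX letters stood side by side. Of 32851 promoters of the same length in the RefSeq table, 4.12% held TTTGCAT on either strand and 10.7% held CATTGT. The Sox2 promoter had a GC content of 72.0%, with 1 TTTGCAT match in reverse (99 bases before the start), 2 GC boxes (GGGCGG, in 32.7% of promoters) and 1 CCAAT in reverse (33.8%). The inner Esrrb promoter held 1 CCAAT, 55 bases before the start. AAGGTCA (4.08%) and TATAAA (12.4%) were not found in these 3 windows. A match describes letters and not binding, and matches of different motifs did not share bases here.

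Reads in the regions came to between 3813365 and 5980366 per library, so that 3 counts equal 0.502 to 0.787 CPM (counts scaled to the reads in the regions, with TMM factors). The 7 regions centred inside Firre summed to 2.36 to 4.48 CPM at 0 min, 232 to 289 CPM at 15 min and 670 to 678 CPM at 30 min, in the order of the labels. Library 3 of 15 min stood apart from the other 8 in a principal component analysis, on the component that held 13.9% of the variance, and without it 14 members in place of 12 were called at 15 min and 7 in place of 5 at 30 min. Gene-end regions of 6 of 8 pluripotency markers, Sox2, Nanog and Sall4 among them, summed to 746 to 852 CPM in every library. Sums were at most 7.34 CPM for fibroblast markers (3 of 7 had a region) and 5.91 for primitive endoderm (3 of 5). They were at most 9.96 for trophectoderm (3 of 5) and 4.61 for mesoderm (2 of 4). Markers without a listed region give no value. Neural markers summed to 90.4 to 123 CPM, nearly all from Olig2. In these bulk libraries more polymerase per cell and more cells with polymerase at a region cannot be told apart.

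The listed regions were spread unevenly over the 5 loci. Esrrb had 63 members, Sox2 54, Sall4 52, Nanog 50 and Pou5f1 17. Distal members lay outside genes in 146 cases, inside another gene in 48, inside Esrrb itself in 18, and at the end of another gene in 21. The deposited list is sparse on chromosome 17, with 1128 regions against 4794 to 14263 on each other autosome, and its nearest region to Pou5f1 was 9.13 kb upstream. No gene-end region was listed for Pou5f1, nor for Esrrb, which lies on chromosome 12 and had the most members. Their own transcription at the outer gene ends was thus not analysed here. The limit of 120 kb does not mark a step in signal: the 10 members nearest to it on either side of the genes had mean levels of 0.172 to 51.5 CPM and the 10 regions next beyond it 0.301 to 18.6 CPM.

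Most members carried little signal, and so did most listed regions: a member at 0.635 CPM already stood above 50.7% of them. The median member had 1.38 CPM over the 9 libraries, 198 were under 10 CPM and 10 were over 100 CPM. All windows have one length, so levels can be set side by side. The 10 busiest were the gene-end region and 3 distal regions of Sox2, the gene-end region and 4 distal regions of Nanog, and 1 region inside Esrrb. The filter on low counts left 110 members (46.6%) for testing: 34 at Nanog, 23 at Sox2, 23 at Sall4, 15 at Pou5f1 and 15 at Esrrb. The same filter left 54299 of all 174289 regions, a smaller share. The 126 members left out had mean levels of at most 1.71 CPM, and 2 of them, both at Esrrb, had no reads in any library.

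Distal regions at Sox2 and Nanog rose within 15 min of doxycycline, and the gene-end regions of Sox2, Nanog and Sall4 were not called in any comparison. At 15 against 0 min, 12 of the 110 tested members were called (10.9%), beside 8.25% of all tested regions. Of the 110, 10 were higher (9.09%) and 2 lower (1.82%) at an adjusted p of 0.05 by edgeR's quasi-likelihood test with Benjamini-Hochberg adjustment over all 54299 tested regions. Over all tested regions 4.29% were called higher and 3.96% lower, or 2331 and 2148 regions. With TMM factors from gene ends alone this split became 4135 higher and 968 lower, and that of the members 14 and 1. The 10 higher members all lay away from annotated gene ends, where they were 11.1% of 90 tested members, beside 5.24% of all such regions; 1 of the 90 was lower (1.11%), beside 2.4%. At the end of any gene, 0 of 20 tested members were called higher and 1 lower. Over all regions at gene ends these shares were 1.81% and 8.04%. In edgeR the unadjusted p was under 0.05 for 30 of the 110 members, beside 12586 of all 54299 tested regions. The median log2 change was -0.02 over the tested members and 0.02 over all tested regions. By locus, 4 regions rose at Sox2, 4 at Nanog, 1 at Pou5f1 and 1 at Esrrb; 1 fell at Nanog and 1 at Pou5f1. None of the 23 tested at Sall4 was called. Of these, 5 had an unadjusted p under 0.05 in edgeR, beside the 12586 of 54299 given above for all tested regions. The count of 12 called members dropped to 7 without library 1 of 0 min and to 7 without library 2 of 15 min.

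**Figure D1:**
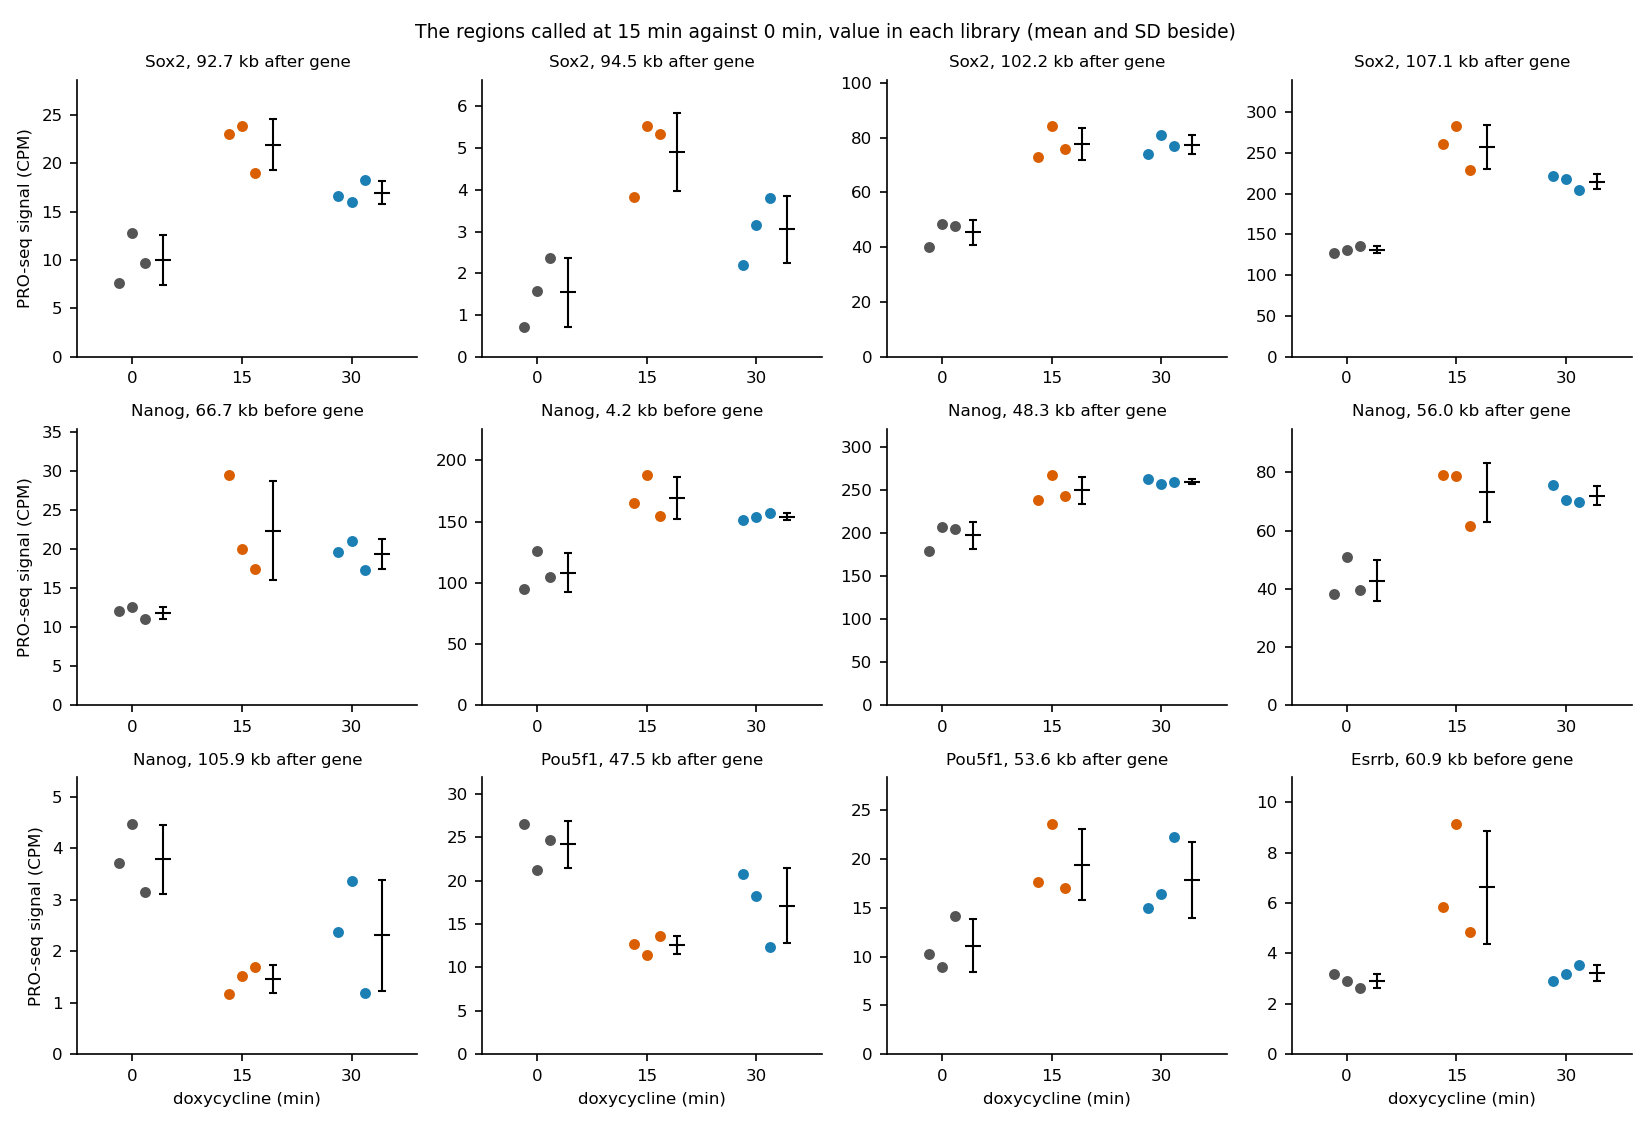
CPM (vertical axis) in each of the 9 libraries by minutes of doxycycline for the 12 members called at 15 against 0 min, 1 panel each with its own scale from 0, with the mean and SD beside the points. The points of 15 min lie above all of those of 0 min in 10 panels and below them in the other two.

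At 30 against 0 min, 5 of 110 tested members were called (4.55%), beside 1.74% of all tested regions. All 5 were higher, beside 1.24% of all tested regions called higher and 0.497% lower. They were 5.56% of the 90 tested members away from gene ends, beside 1.53% of all such regions. 3 of the 5 lay at Nanog and 2 at Sox2. The median log2 change of the members was 0.05, and that of all tested regions -0.00. Both comparisons share the libraries of 0 min, so their values are given side by side and are not independent. The count dropped to 2 without library 1 of 0 min, and to 3 without library 3 of 0 min or without any 1 of the 30 min libraries. At 30 against 15 min none of the 110 was called by edgeR, beside 0.704% of all tested regions. The DESeq2 Wald test called none either, but gave no adjusted p for 51 of the 110. In edgeR 9 of the 110 had an unadjusted p under 0.05, beside 5230 of all 54299 tested regions.

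At its gene end, Sox2, which encodes the partner of Oct4, was among the busiest members at every time. The region there (chr3:34649484-34650083), centred 212 bp from the start and also inside Sox2ot, a long non-coding gene that spans Sox2, had 270.5, 254 and 301 CPM at 0 min. It had 294, 269.8 and 343 CPM at 15 min and 258, 299 and 294 CPM at 30 min. The 3 times overlapped, and the log2 change was 0.14 ± 0.10 (SE) at 15 min (adjusted p = 0.464) and 0.04 ± 0.10 at 30 min (adjusted p = 0.893). Without the strand of counting, reads of Sox2 and of Sox2ot in this window cannot be told apart.

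Nanog had the highest level of all 236 members at its own start. The region at the Nanog start (chr6:122707172-122707771, centred 18 bp from it) had 309.6, 352 and 287 CPM at 0 min, 314, 293 and 257 CPM at 15 min and 306, 314 and 313 CPM at 30 min. The libraries of the 3 times overlapped here too, with log2 changes of -0.13 ± 0.10 (adjusted p = 0.445) and -0.02 ± 0.10 (adjusted p = 0.944). At 0 min the Sox2 and Nanog ends had 275 ± 24 and 316 ± 33 CPM (SD, n = 3) in the same libraries, and the ranges of their values overlapped.

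Sall4 was transcribed at its end at a lower level. The region there (chr2:168766841-168767440), which lies in both Sall4 and the overlapping Gm14261, had 81.5, 69.2 and 80.0 CPM at 0 min, 68.7, 58 and 82.1 CPM at 15 min and 59, 92.4 and 70.4 CPM at 30 min. The times overlapped, with log2 changes of -0.15 ± 0.15 (adjusted p = 0.596) and -0.06 ± 0.15 (adjusted p = 0.908). Every Sox2 and Nanog library was above every Sall4 library. Scaled by TMM factors from gene ends alone, which moves the median log2 change of all tested regions from 0.02 to 0.19 at 15 min, the changes at 15 min came to 0.29 for Sox2, 0.03 for Nanog and 0.00 for Sall4, so the sign of the latter pair turns, and none of the 3 was called.

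**Figure D2:**
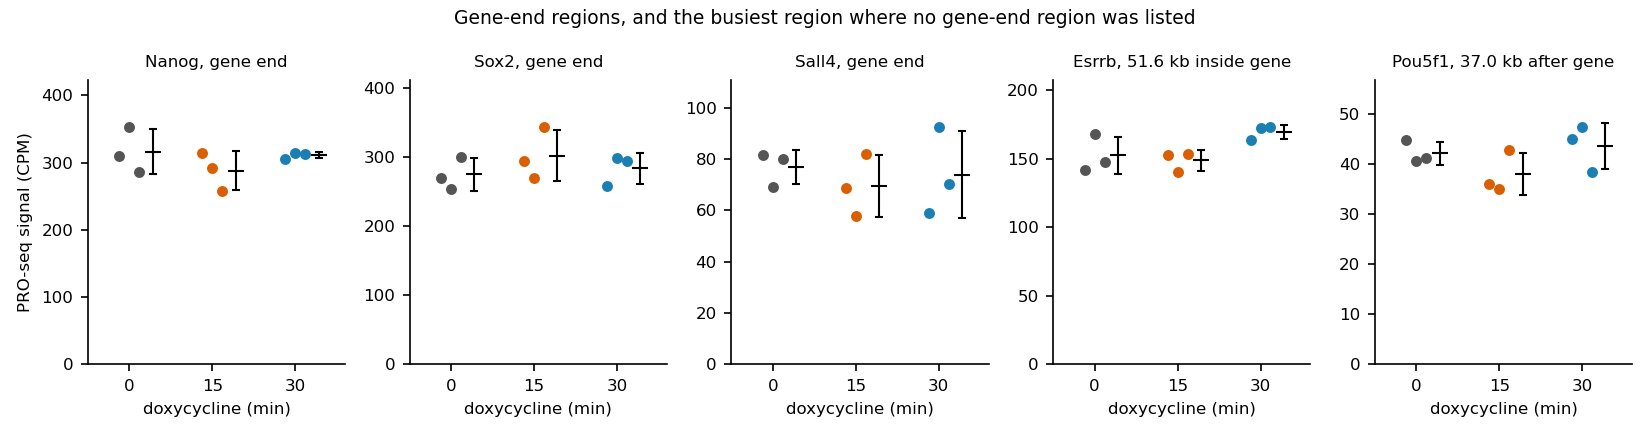
CPM in each library at the gene-end regions of Sox2, Nanog and Sall4 and at the busiest regions of Esrrb and Pou5f1, by minutes of doxycycline, with the mean and SD (n = 3) beside the points; each panel has its own scale from 0. The 3 times overlap at each gene end, and Sox2 and Nanog lie between 254 and 352 CPM, above Sall4 at 58 to 92.4 CPM.

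The Sox2 regions called higher lay in 1 stretch, between 92.7 and 107 kb past the gene. Over all 23 tested Sox2 members the median log2 change was 0.31 at 15 min and 0.26 at 30 min. Over all tested regions it was 0.02 and -0.00. All 4 called regions lay outside annotated genes and none of their windows overlapped another listed window. The busiest, 107 kb past the gene (chr3:34759215-34759814), stood above 99.8% of all listed regions. It had 128, 130.5 and 136 CPM at 0 min, 261, 283 and 229 CPM at 15 min and 222, 218 and 205 CPM at 30 min. Every treated library was above every untreated one, with log2 changes of 0.97 ± 0.10 at 15 min (adjusted p = 9.09e-07) and 0.71 ± 0.10 at 30 min (adjusted p = 0.000369). The level at 30 min was 0.26 ± 0.10 lower than at 15 min on the log2 scale, which did not pass the test (adjusted p = 0.352).

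Next to it, the region 102 kb past Sox2 (chr3:34754377-34754976) had 40.2, 48.3 and 47.7 CPM at 0 min, 73, 84.3 and 76 CPM at 15 min and 74.2, 81.1 and 77 CPM at 30 min. Here the treated times lay together and above the untreated libraries, with log2 changes of 0.78 ± 0.12 (adjusted p = 0.00026) and 0.77 ± 0.12 (adjusted p = 0.00159). These 2 regions were called at both times whichever library was left out.

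Nearer the gene the same stretch held weaker regions. At 92.7 kb (chr3:34744905-34745504) the level was 7.62, 12.8 and 9.7 CPM at 0 min, 23, 23.8 and 18.9 CPM at 15 min and 16.6, 16 and 18.3 CPM at 30 min. The groups did not overlap, and the log2 rise was 1.15 ± 0.20 at 15 min (adjusted p = 0.000832), while its log2 change of 0.77 ± 0.21 at 30 min was not called (adjusted p = 0.0576). A narrow region at 94.5 kb (chr3:34746667-34747266) had 0.709, 1.57 and 2.36 CPM at 0 min against 3.83, 5.53 and 5.34 CPM at 15 min, from 4 to 9 reads per library at 0 min and 22 to 29 at 15 min. Its rise of 1.72 ± 0.42 (adjusted p = 0.0112) was no longer called without library 1 of 0 min or library 2 of 15 min, and at 30 min its log2 change was 1.03 ± 0.45 (adjusted p = 0.263). The next region outward, 112.9 kb past the gene, had 11.4 CPM on average and was not called, with a log2 change of 0.07 at 15 min. Just inward, a weak region at 91.2 kb had 1.92 CPM on average and was not called either. Its log2 changes were 1.51 ± 0.54 at 15 min (adjusted p = 0.0819) and 1.16 ± 0.56 at 30 min (adjusted p = 0.324).

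Close to Sox2 no region was called, which does not show that none changed. A weak region 10.7 kb before the gene averaged 2.62 CPM over the libraries. Its log2 changes were 0.82 ± 0.43 at 15 min (adjusted p = 0.251) and 1.10 ± 0.42 at 30 min (adjusted p = 0.188). Those of the region 3.48 kb before the gene were 0.47 and 0.57, and those of the region 7.20 kb before it -0.11 and -0.16. The region 1.28 kb past the gene (chr3:34653442-34654041) averaged 129 ± 13, 159 ± 19 and 156 ± 11 CPM (SD, n = 3) at 0, 15 and 30 min. Its log2 change of 0.31 ± 0.11 at 15 min did not pass (adjusted p = 0.0944), and was called only with TMM factors from gene ends (0.47, adjusted p = 0.021). The region 11.95 kb past the gene (chr3:34664116-34664715) averaged 102 ± 4.0, 109.9 ± 3.7 and 111 ± 5.3 CPM, with log2 changes of 0.11 and 0.12. Both lie in Sox2ot.

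The Nanog locus had its rising regions on both sides of the gene. The nearest lay 4.19 kb upstream (chr6:122703002-122703601), outside genes. It had 94.6, 126 and 105 CPM at 0 min, 165, 188 and 155 CPM at 15 min and 152, 154 and 157 CPM at 30 min. All treated libraries were above all untreated ones, and the region rose by 0.65 ± 0.11 at 15 min (adjusted p = 0.000783) and by 0.51 ± 0.11 at 30 min (adjusted p = 0.0197). The call at 15 min held without any 1 library, and that at 30 min ended on leaving out library 1 of 0 min, library 3 of 0 min or any 1 of the 30 min libraries.

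Downstream, a pair of regions inside the neighbouring Slc2a3, which encodes a glucose transporter, rose. The one 56.0 kb past Nanog (chr6:122770381-122770980) had 38.1, 50.8 and 39.6 CPM at 0 min, 79.2, 78.9 and 61.5 CPM at 15 min and 75.8, 70.4 and 69.7 CPM at 30 min. The treated times were alike and above 0 min, with log2 changes of 0.78 ± 0.14 (adjusted p = 0.000766) and 0.75 ± 0.14 (adjusted p = 0.0051), the latter lost without library 1 of 0 min. The one 48.3 kb past Nanog (chr6:122762612-122763211) was the busiest distal member of all, at 179, 207 and 205 CPM at 0 min, 239, 267 and 243 CPM at 15 min and 262, 256 and 259 CPM at 30 min. Both treated times lay above 0 min and overlapped each other, and the changes were small, 0.34 ± 0.10 (adjusted p = 0.0282) and 0.40 ± 0.10 (adjusted p = 0.0328). Each of its calls was lost on leaving out any of 5 libraries: libraries 1 and 3 of 0 min at both times, libraries 1 and 2 of 15 min and library 2 of 30 min for the call at 15 min, and each 30 min library for that at 30 min. Both calls also ended with no filter on low counts, and the one at 15 min when only the 2 times compared were fitted. Reads of Slc2a3 itself cannot be separated from those of a region inside it.

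Farther upstream, 66.7 kb before Nanog and 10560 bp from Dppa3, a gene of the early embryo and germ line, a region (chr6:122640532-122641131) had 12, 12.5 and 11 CPM at 0 min, 29.5, 20.0 and 17.5 CPM at 15 min and 19.7, 21.1 and 17.3 CPM at 30 min. Both treated times lay above 0 min and overlapped each other, and it rose by 0.92 ± 0.20 at 15 min (adjusted p = 0.00523), a call lost without library 1 of 15 min, its highest (0.66, adjusted p = 0.0842). At 30 min the log2 change was 0.71 ± 0.21 (adjusted p = 0.0782). The 1 Nanog member that fell at 15 min lies at the end of Foxj2, 105.9 kb past Nanog (chr6:122820240-122820839), with 12 to 21 reads per library at 0 min and 7 or 8 at 15 min. Its log2 change of -1.38 ± 0.43 (adjusted p = 0.0478) was lost on leaving out any of 7 libraries (all but library 3 of 15 min and library 3 of 30 min) and with TMM factors from gene ends or no filter.

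Other busy Nanog members were not called. The region 44.5 kb before Nanog (chr6:122662694-122663293), among the 10 busiest members, had 131, 137 and 159 CPM at 0 min, 141, 153 and 142 CPM at 15 min and 158, 174 and 158 CPM at 30 min. Each treated time overlapped 0 min, while all 30 min libraries were above those of 15 min, with log2 changes against 0 min of 0.03 ± 0.11 (adjusted p = 0.888) and 0.20 ± 0.11 (adjusted p = 0.376). The region 28.1 kb past Nanog, also in Slc2a3, averaged 102 CPM over the libraries with a log2 change of -0.12 at 15 min. Of the 10 members over 100 CPM, 3 were called higher at 15 min. The share called higher among all regions over 100 CPM was not taken, so this count has no background.

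**Figure D3:**
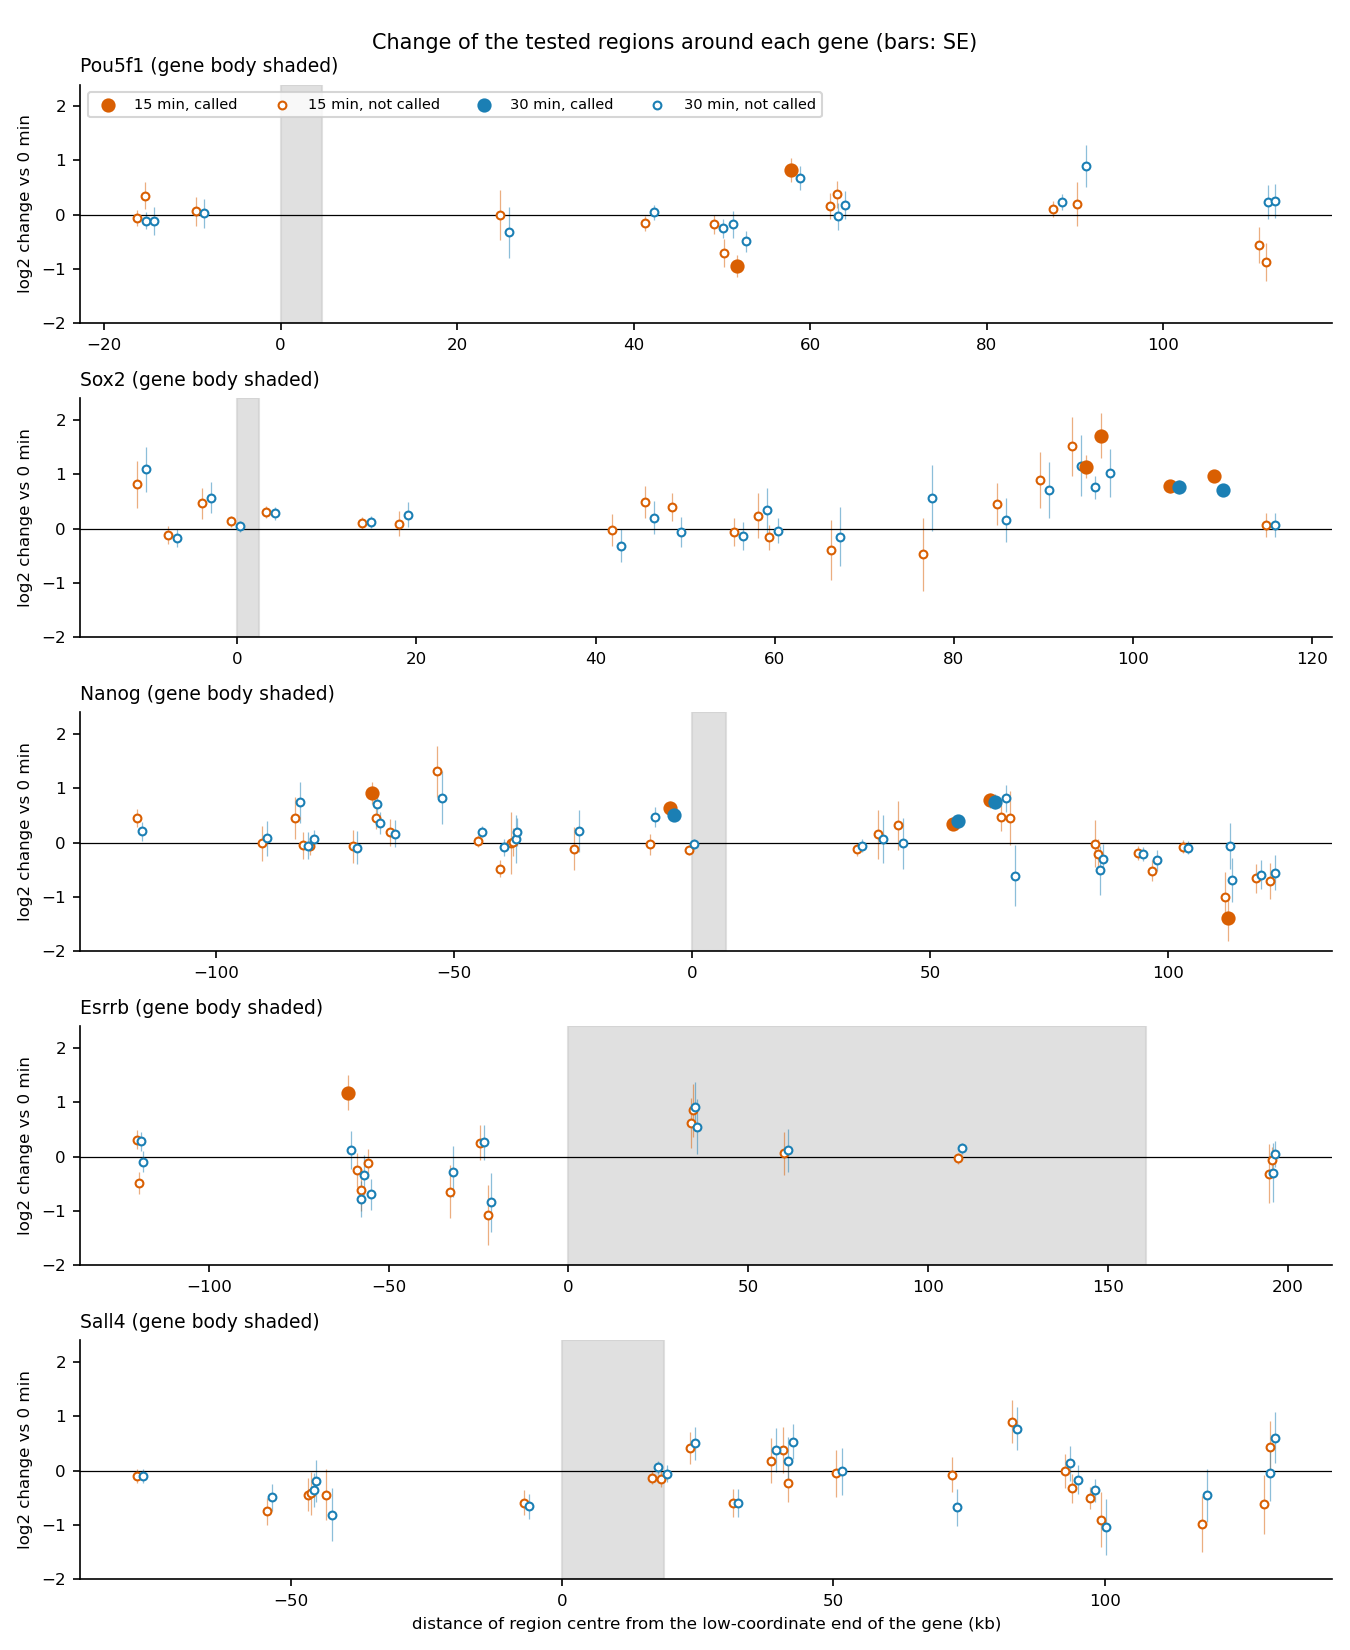
Log2 change with its SE at 15 and 30 min against 0 min (vertical axis) for the 110 tested members, by distance in kb of the region's centre from the low-coordinate end of the gene, 1 panel per gene with the gene shaded. Called regions are filled; at Sox2 they stand together between 92.7 and 107 kb past the gene, and at Nanog they lie on both sides.

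Distal change was also read against the promoter of the same gene within each library, a ratio that needs no scaling factor and was chosen after the data were seen. The 8 called-higher regions of Sox2 and Nanog had ratios to the gene-end region that were higher in every library of 15 min and of 30 min than in any library of 0 min. They were chosen for their rise at 15 min and the log2 changes of the gene ends at 15 min were 0.14 and -0.13, so this direction is a description and no further support. Over all tested regions the median log2 change at 15 min was 0.12 away from gene ends and -0.16 at gene ends. At 30 min these medians were 0.07 and -0.12. They thus part in the same direction as these ratios, and the ratio was not taken over all regions. Of the others, the Foxj2 end was lower in this ratio in every library of both treated times, and the region 53.9 kb from Sall4 in every library of 15 min. The region 107 kb past Sox2 gave 0.472, 0.513 and 0.452 of the gene-end signal at 0 min, 0.887, 1.05 and 0.667 at 15 min and 0.860, 0.730 and 0.696 at 30 min. In 1 library of 15 min it thus exceeded the promoter. The region 4.19 kb before Nanog gave 0.306, 0.357 and 0.366 at 0 min, 0.525, 0.643 and 0.603 at 15 min and 0.496, 0.491 and 0.5002 at 30 min. Over 15 regions and 30 comparisons the exact two-sided permutation test on 3 against 3 libraries cannot go below p = 0.1, and the smallest adjusted p was 0.158. The regions 1.28 kb past Sox2 and 44.5 kb before Nanog overlapped between times in this ratio (exact permutation p = 0.5 for each at 15 min).

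**Figure D4:**
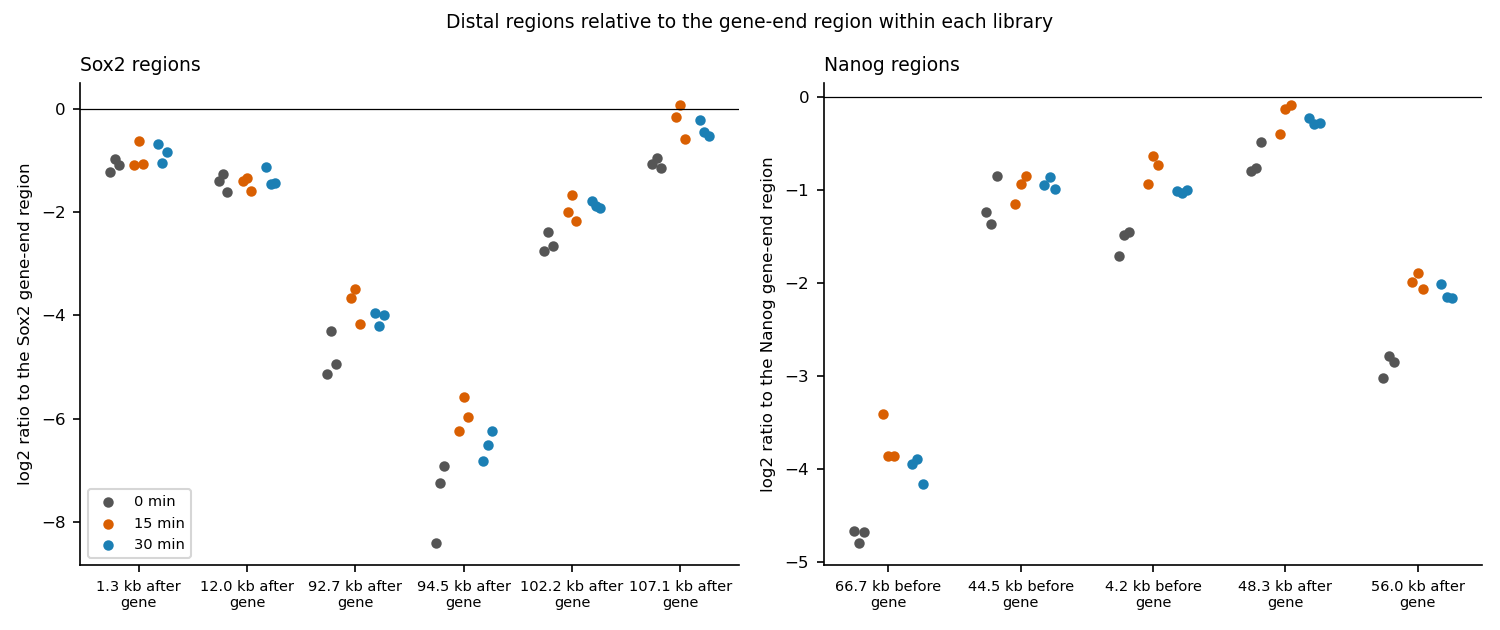
Log2 ratio of 11 distal regions of Sox2 and Nanog to the gene-end region of the same gene (vertical axis), 1 point per library, by region and coloured by time; the line at 0 marks a level equal to the gene end. The called regions stand higher at 15 and 30 min than at 0 min in every library, while the ratios of the regions 1.28 kb past Sox2 and 44.5 kb before Nanog overlap.

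Esrrb, the longest of the 5 genes, had its strongest region within the gene, 51.6 kb from the nearer end (chr12:86469700-86470299). It had 142, 168 and 147 CPM at 0 min, 153, 139.9 and 154 CPM at 15 min and 163, 172 and 173 CPM at 30 min. Both treated times overlapped 0 min, while every 30 min library was above every 15 min library, with log2 changes against 0 min of -0.03 ± 0.10 (adjusted p = 0.878) and 0.15 ± 0.10 (adjusted p = 0.512). The window over the inner promoter printed above (chr12:86421373-86421972), centred 28 bp from that start, had only 3.80 CPM on average, with a log2 change of 0.06 at 15 min (adjusted p = 0.951). The median Esrrb member had 0.374 CPM, the lowest of the 5 loci.

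The only Esrrb member called was a weak region 60.9 kb before the gene (chr12:86299959-86300558), 5601 bp from Gpatch2l. It had 3.19, 2.91 and 2.62 CPM at 0 min, 5.83, 9.15 and 4.86 CPM at 15 min and 2.92, 3.17 and 3.56 CPM at 30 min. It stood higher at 15 min alone, with log2 changes of 1.18 ± 0.32 at 15 min (adjusted p = 0.0231) and 0.12 ± 0.36 at 30 min (adjusted p = 0.915); the step from 15 to 30 min, -1.05 ± 0.31, did not pass (adjusted p = 0.156). Leaving out library 1 of 0 min, library 3 of 0 min or library 2 of 15 min ended the call, as did testing with no filter on low counts. Regions 24.0 kb before and 35.5 kb past Esrrb averaged 6.60 and 9.05 CPM and were not called.

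Around Pou5f1 the 3 busiest listed regions stood above 95.8 to 97.1% of all listed regions, though the busiest region of each other locus had more signal. The one 37.0 kb past the gene (chr17:35547502-35548101), inside Cdsn, a skin adhesion gene, averaged 42.2 ± 2.3, 37.9 ± 4.2 and 43.6 ± 4.6 CPM (SD, n = 3), and the one 15.7 kb before it (chr17:35490004-35490603) 42.3 ± 4.8, 40.4 ± 4.9 and 39.3 ± 7.5 CPM. Neither was called, nor was the region 83.3 kb past the gene at 28.1, 30.1 and 32.9 CPM.

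A pair of nearby regions past Pou5f1 moved in opposite directions at 15 min. The region at 47.5 kb (chr17:35557939-35558538), 1058 bp from an end of Cdsn, had 26.6, 21.3 and 24.6 CPM at 0 min, 12.7, 11.4 and 13.6 CPM at 15 min and 20.8, 18.3 and 12.3 CPM at 30 min. All 15 min libraries were below all 0 min libraries, and it fell by 0.95 ± 0.20 in log2 terms (adjusted p = 0.00342), also on leaving out any 1 library; at 30 min its log2 change was -0.49 ± 0.19 (adjusted p = 0.21). The region at 53.6 kb (chr17:35564061-35564660) had 10.3, 8.95 and 14.2 CPM at 0 min, 17.7, 23.6 and 17 CPM at 15 min and 14.9, 16.4 and 22.3 CPM at 30 min. It rose by 0.82 ± 0.22 at 15 min (adjusted p = 0.0197), a call that ended on leaving out either of libraries 1 and 2 of 0 min, or library 2 of 15 min, and its log2 change at 30 min was 0.69 ± 0.22 (adjusted p = 0.113).

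At Sall4 the tested members had a median log2 change of -0.23 at 15 min and -0.10 at 30 min, with none called. The busiest member was not the gene-end region but one 1.72 kb inside the gene at the end of Gm14261 (chr2:168765183-168765782), with 79.6 CPM on average and log2 changes of -0.13 and 0.06. On the low-coordinate side, a region 77.7 kb away in Atp9a averaged 54.0 ± 2.5, 50.2 ± 1.9 and 50.3 ± 2.0 CPM (SD, n = 3). Another in Atp9a, 53.9 kb away, averaged 12.7, 7.72 and 9.04 CPM, with a log2 change of -0.75 ± 0.25 at 15 min that was not called (adjusted p = 0.0643). A region 78.9 kb on the other side averaged 18.5, 13.0 and 14.2 CPM and was not called (adjusted p = 0.137 at 15 min).

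The 10 members called higher at 15 min were also described by width and place. The bidirectional calls they came from were 370 to 5226 bp wide, with a median of 2011 bp, against 654 bp for the tested members away from gene ends that were not called. A fixed window of 600 bp therefore covers only the middle of most of them. Busy members that were not called could be as wide. The calls were 2740 bp wide 44.5 kb before Nanog and 2076 bp 11.95 kb past Sox2, but 1006 bp 28.1 kb past Nanog. Widths were not compared at a like level of signal. None of the 10 overlapped another listed window, as was the case for 91 of all 110 tested members. Of the 10, 8 lay outside genes and 2 inside Slc2a3, where 56 of the 90 tested members away from gene ends lay outside genes. Their log2 changes ran from 0.34 to 1.72 at 15 min and from 0.12 to 1.03 at 30 min. Not overlapping between 15 and 0 min, all higher, were 18 of 110 tested members (16.4%), beside 13.7% of all tested regions.

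Other genes of the pluripotency network were read at their busiest gene-end region. Of 21 regulators 19 had a region, and 2 of these were called higher at 15 min and none lower. Over all tested gene-end regions 1.81% were called higher and 8.04% lower. At 30 min 1 of the 19 was called, higher, beside 0.493% of all gene-end regions. Those shares take in every tested gene-end region, weak ones too, so they are not a like-for-like background for busiest regions. The median log2 change of the regulators at 15 min was 0.10, beside -0.16 over all tested gene-end regions. Prdm14, a repressor that protects the naive state, averaged 107, 139 and 119 CPM at 0, 15 and 30 min, and rose by 0.38 ± 0.11 at 15 min (adjusted p = 0.0274), a call that ended on leaving out library 1 of 0 min, library 3 of 0 min, library 2 of 15 min or library 2 of 30 min. Nr0b1 (Dax1), an orphan nuclear receptor on the X chromosome, averaged 72.5, 103 and 98.9 CPM, with log2 changes of 0.50 ± 0.12 at 15 min (adjusted p = 0.00671) and 0.45 ± 0.12 at 30 min (adjusted p = 0.0406, lost on leaving out any 1 of 7 libraries). Of 17 target genes 12 had a region and none was called, with a median log2 change of -0.00 at 15 min. Among these targets the smallest p at 15 min belonged to Tdgf1, a Nodal co-receptor (0.31 ± 0.10, adjusted p = 0.0613), Fgf4, a growth factor gene bound by Oct4 and Sox2 (-0.32 ± 0.12, adjusted p = 0.100), and Tcl1 (-0.42 ± 0.18, adjusted p = 0.144).

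Gene-end regions of other genes with the most similar course over the 9 libraries were found by the root mean square difference of centred log2(CPM + 0.5), among 11880 regions. For Sox2 these were Mga (0.0392) and Uhrf1 (0.0422), for Nanog Rad51c (0.0416) and Rps4l (0.0614), and for Sall4 Zfp407 (0.0483) and Cbr4 (0.0635), against a median difference of 0.28 for Sox2. The likeness is a description over 9 libraries.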

How the data were processed

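The authors' deposited table of read counts per bidirectional region was used as given, with the region lists, whose starts, ends and other values such as region names are on mm10. Per the file names the regions were called with Tfit and merged with muMerge. Per the submitters' processing notes the reads were processed with HISAT2, featureCounts and DESeq2 1.26.0; settings and the strand counted are not given in the sources used here. Per the labels' protocols 1% Drosophila S2 nuclei were added; they were not used here, so each change is relative to the rest of the mouse signal.

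Gene ends came from the RefSeq annotation of GRCm38.p6, the assembly of mm10. Counts were tested in R 4.3.3 with edgeR 4.0.16 (default filter, TMM factors 0.971 to 1.02, 1 quasi-likelihood fit of all 9 libraries by time, common dispersion 0.0228). Benjamini-Hochberg adjustment ran over 54299 regions, with calls at 0.05; the filter removed 119990. The SE is the size of the log2 change over the square root of F. Ratios to the gene end add 0.5 counts to both sides. Tables were made in Python 3.11.15. The totals are reads in regions, not sequenced depth, and floors of 3 counts cover counting error only.

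The members and gene lists were chosen with earlier results of these data known. Named were all gene-end regions of the 5 genes, every called distal member, the 3 busiest distal regions of each gene away from gene ends, for each gene-end region the 2 most similar gene-end regions of other genes (mean of at least 20 counts), and the list genes called in any comparison or else the 3 of smallest p at 15 min. A few others were chosen after their values were seen. Around Sox2 these were the regions 112.9 and 91.2 kb past the gene and 10.7, 7.20 and 3.48 kb before it. Elsewhere they were the region 28.1 kb past Nanog, the inner Esrrb promoter, and the Gm14261 end in Sall4. Marker lists were read as summed CPM. Alternatives were other scalings, filters and tests, the replicate number as a block, windows that overlap no other, and each library left out.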

Additional observations from a re-analysis of the deposited data

How the results depend on the processing

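Leaving out 1 library at a time gave 7 to 14 called members at 15 against 0 min (12 with all), 2 to 7 at 30 against 0 min (5 with all) and 0 at 30 against 15 min. The other settings gave 9 to 15, 4 to 7 and 0. Among them the DESeq2 Wald test (DESeq2 1.42.0) gave 11, 5 and 0. It gave no adjusted p for 33, 44 and 51 of the 110 tested members, which could not be called. Over all regions the counts of 4479, 945 and 382 moved between 2123 and 6412, 171 and 1510, and 154 and 548 on leaving out 1 library; fewer samples enter each such fit. TMM factors from gene ends turned the split of all calls at 15 min from 2331 higher and 2148 lower to 4135 and 968, and that of the members from 10 and 2 to 14 and 1. No named member changed sign in a called value. A limit of 60 kb in place of 120 kb left 133 members, and 500 bp in place of 1 kb for the gene end left all 3 gene-end regions. The replicate numbers do not pair the samples by their deviations (correlations of same-numbered libraries -0.048 to 0.176, of others -0.199 to 0.102, 2 libraries closest to their own number); with the replicate number as a block the members called were 12, 5 and 0. Regions of few reads, such as those called at 94.5 kb past Sox2 and at the end of Foxj2, are limited by counting error.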
